A study of Mus musculus with 10 samples.

Results

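RNA from the neurites of mouse cortical neurons labelled as Cpeb1 knockout was compared with RNA from wild-type neurites, both naive, that is, left uncut. Of the 45195 gene IDs with deposited values, 14043 reached a value of 1 in 2 or more of the 5 naive libraries, and these are the genes described here. Each library held between 12451 and 12619 of them at 1 or above. The wild-type naive group held 3 libraries from C57BL/6 embryos. The knockout naive group held 2 libraries from embryos homozygous for a floxed Cpeb1 allele (flox/flox) on the C57BL/6 background. Neurons of both genotypes, wild type included, received an adeno-associated virus (AAV2) with Cre recombinase under the CAG promoter, which is active in most cell types, when they were plated. Cortical neurons were taken at E16.5 (embryonic age in days) and grown on membranes with 3 µm pores, through which neurites but not cell bodies pass. On day 8 in vitro the upper side was wiped clean of cell bodies and the neurites below were lysed. A further 5 libraries, 3 wild type and 2 knockout, came from neurites scraped off on day 7 and lysed 24 hours later (injured). They are used here as a second reading of the same genotype difference and, in the fit, for the estimate of the spread. The deleted Cpeb1 exons, the meaning of the replicate numbers and whether replicates were separate cultures are not stated in the labels. The p-values therefore measure the spread between these particular libraries alone, which may be technical.

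CPEB1, the cytoplasmic polyadenylation element binding protein, binds a short U-rich element in the 3' untranslated region (UTR) of mRNAs. By recruiting poly(A)-lengthening or poly(A)-shortening enzymes it can switch translation of such an mRNA on or off, and in neurons it is known for transporting mRNAs into dendrites. Values are FPKM (fragments per kilobase of transcript and 1e6 fragments) divided by a normalization factor per library, and all levels below are on that scale. Log2 fold changes are knockout minus wild type, computed on log2(value + 1), and each ± after a fold change is its standard error. That scale understates the changes of genes with low values. A gene was called when limma's adjusted p, over all 14043 genes, was under 0.05.

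The estimated depth was between 21.45 and 25.6 in units of 1e6 fragments over the 5 naive libraries, and 12920 to 13143 genes of all kinds were at 1 or above in each. Markers of neurons and axons were high in every naive library: the summed level of the 9 genes tested for, among them Tubb3, Mapt, Gap43 and Stmn2, was 4377, 3891 and 4332 in wild type and 4937 and 4517 in knockout. At the targeted gene 1 knockout library did not lie below wild type. Cpeb1 (ENSMUSG00000025586, chr7:81347026-81455465, minus strand, mm10) was listed at 7.16, 5.96 and 5.86 in wild type, at 5.97 in knockout replicate 1 and at 0.356 in knockout replicate 2. The library labelled knockout replicate 1 therefore lay within the wild-type range, and only replicate 2 lay below it. The log2 fold change was -1.25 ± 0.91 (adjusted p = 1), -2.43 without replicate 1 and -0.067 without replicate 2. A value for the whole gene does not show whether reads came from deleted exons. In injured neurites Cpeb1 was at 1.65, 13.8 and 22.6 in wild type and 1.14 and 3.15 in knockout, so the groups overlapped. At the 23 genes called below, which were called by these labels, knockout naive replicate 1 lay apart from every wild-type library. All directions below follow the labels. Values without either knockout library are given beside some of the results that they move, not beside all.

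Few genes passed the test between the genotypes, and nearly all of them were near-identical copies of other genes. Limma called 23 of 14043 genes (0.164%), 20 higher in knockout (0.142%) and 3 lower (0.0214%). An unadjusted p under 0.05 was found for 593. Of the 23 called genes, 17 were pseudogenes, 5 were annotated as protein coding and 1 was an unclassified gene model. At least 1 near-identical copy among the genes tested was found for 21 of the 23. Such a copy has a transcript that matches at 95% identity or more along 150 nt or more that cover 50% or more of the shorter one. Genes with a copy made up 884 of the 14043, and 2.38% of them were called. Of the 13159 genes for which the search found none, here termed genes without a copy, 2 were called (0.0152%). Of these 2, the unclassified gene model, Gm37750, was too short for the search. Among the 242 pseudogenes with a copy 7.02% were called. The called genes lay on 13 chromosomes. In each, no knockout library overlapped a wild-type library, and this also held over all 10 libraries with the injured ones included. Of the 23, 13 were at 1 or above in no wild-type naive library and 2 in no knockout naive library. These passed the filter on low values only through the group where they are high. For the 13, the filter itself fixed that the naive groups did not overlap. Over all 14043 genes the naive groups did not overlap in 14.9% (higher in knockout) and 8.84% (lower). Without knockout replicate 1, 19 of the 23 passed, and without replicate 2, 15 passed. None changed sign.

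The copies are so alike that few bases tell them apart. Most of the called pseudogenes are processed pseudogenes, copies of a spliced mRNA that was reverse transcribed and inserted elsewhere in the genome. Of 22 pairs of a gene and its copy that were aligned over the coding sequence, 14 were at least 99% identical, 12 differed at no more than 5 bases, and identity ran from 97.5% to 100%. The windows of 30 bases below come from the coding sequences of GENCODE M21 transcripts (mm10) and are written 5′ to 3′ on the strand of the gene. They are shown because, Rps13-ps2 apart, they hold a base by which a read could be assigned to one gene or the other. Capitals mark the bases that differ between a gene and a copy. The Rps13 window has no capital in Rps13-ps2, which is identical to Rps13 over all 453 bases aligned, and Rps13-ps1 differs at 2 of 456. A read within those 453 bases cannot be told apart between Rps13 and Rps13-ps2 by its letters.
Rps13, chr7:116332379-116332408, minus strand: taagcgggtgctcccaccTaattggaaata
Rps13-ps1, chr8:87048112-87048141, plus strand: taagcgggtgctcccaccCaattggaaata
Rps13-ps2, chr7:88530477-88530506, minus strand: taagcgggtgctcccacctaattggaaata
Rps3a1, chr3:86138485-86138514, minus strand: agtAaaaatgctgaagaaAcccaagtTtga
Rps3a2, chr14:88123138-88123167, minus strand: agtTaaaatgctgaagaaacccaagtCtga
Rps3a3, chr13:108671244-108671273, plus strand: agtaaaaatgctgaagaaGcccaagtttga
Rpl34, chr3:130729070-130729099, minus strand: gaaagcacctaaatcTgcatgtggcgtgtg
Rpl34-ps1, chr6:71124726-71124755, plus strand: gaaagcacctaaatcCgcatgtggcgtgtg
Fabp5, chr3:10015065-10015094, plus strand: cacagtgaagacgacTgtgttctcttgtaa
Gm6166, chr9:57484136-57484165, plus strand: cacagtgaagacgacCgtgttctcttgtaa
Kpna2, chr11:106991289-106991318, minus strand: taatcttacctggacActttcaaacctttg
Gm10184, chr17:89909607-89909636, minus strand: taatcttacctggacGctttcaaacctttg

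Rps13, which encodes a protein of the small ribosomal subunit, and its pseudogenes gave 3 of the 23 calls, in both directions. Rps13 itself (ENSMUSG00000090862, chr7:116331505-116334195) had levels of 388, 402 and 450 in wild type and 93.9 and 64.5 in knockout, and it fell with a log2 fold change of -2.39 ± 0.20 (adjusted p = 3.27e-05). Rps13-ps2 (ENSMUSG00000069972, chr7:88530446-88530898), a processed pseudogene of 1 exon, had levels of 266, 237 and 311 in wild type and was listed at 0 in both knockout libraries (adjusted p = 2.31e-08). Rps13-ps1 (ENSMUSG00000066362, chr8:87047689-87048226) moved the other way, from 14.7, 9.81 and 10.1 in wild type to 841 and 701 in knockout (5.96 ± 0.55, adjusted p = 9.84e-05). The sequence that stood for most of the family was thus a different one in each genotype. Rps13-ps4, a further copy, stayed at 15.3 or below in every naive library and its groups overlapped. Summed over the 4 genes the level was 671, 652 and 777 in wild type and 950 and 767 in knockout, so the groups overlapped. Here and below, a sum adds values per kilobase of transcript, not counts of fragments. The mean knockout sum was 1.23 times the wild-type mean, and the sum was not called (log2 fold change 0.29 ± 0.18, adjusted p = 1).

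**Figure D1:**
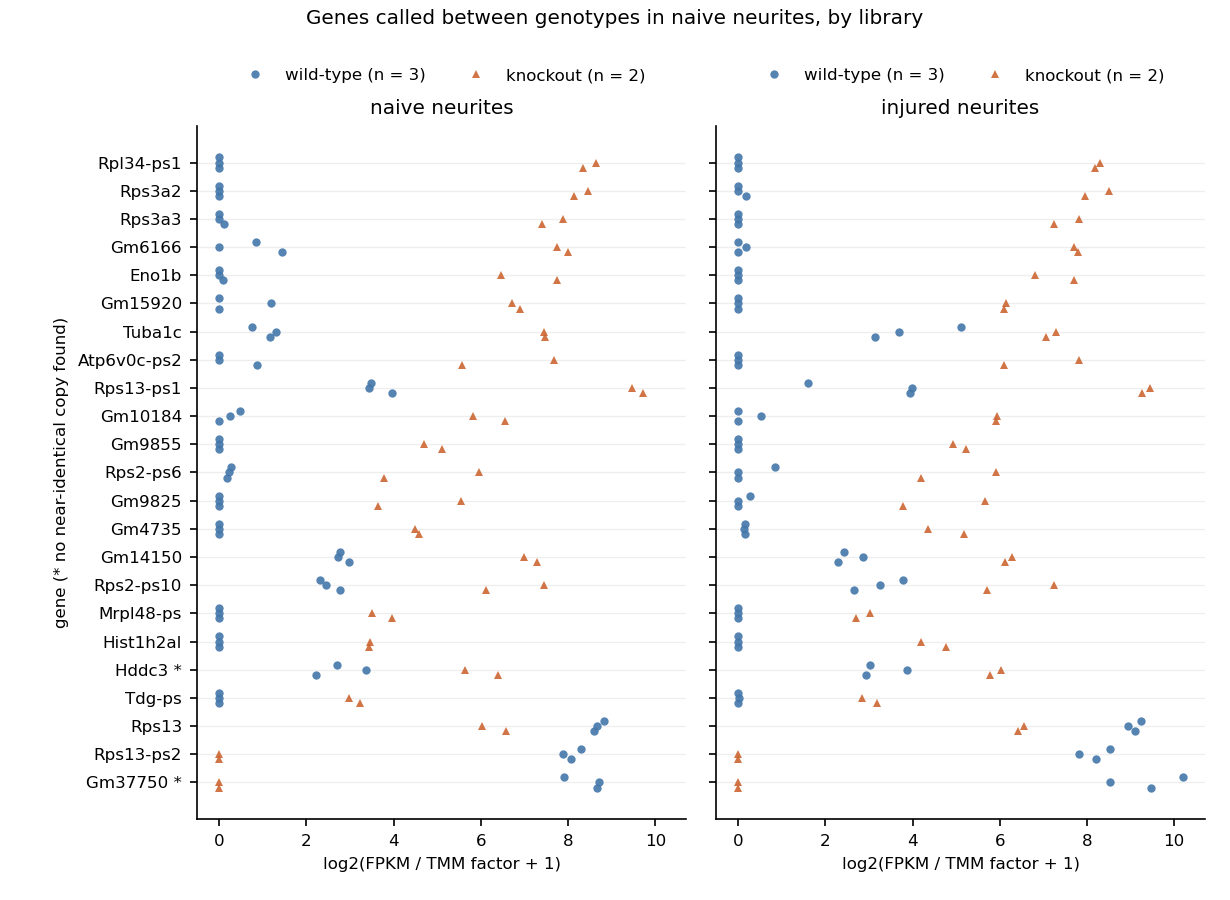
Levels of the 23 genes called in naive neurites, 1 point a library, on the scale log2(value + 1), in naive (left) and injured (right) neurites. Circles are wild type (n = 3), triangles knockout (n = 2). An asterisk marks the 2 genes for which no near-identical copy was found, of which Gm37750 was too short for the search. In every row of both panels the wild-type and knockout points are apart; 20 genes lie higher in knockout and 3, Rps13, Rps13-ps2 and Gm37750, lie lower.

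Copies of other ribosomal protein genes were called as well. Rps3a2 (ENSMUSG00000062611, chr14:88123017-88123808) and Rps3a3 (ENSMUSG00000059751, chr13:108670603-108671397), both processed pseudogenes of the small-subunit gene Rps3a1, had levels of 279 and 349 and of 169 and 234 in knockout. In wild type Rps3a2 was listed at 0 in all 3 libraries and Rps3a3 at 0.088, 0 and 0 (adjusted p = 3.40e-07 and 1.98e-06). Rps3a1 had levels of 630, 606 and 705 in wild type and 629 and 224 in knockout, groups that overlap (adjusted p = 1). Its fold change was -1.52 without knockout replicate 1 and -0.036 without replicate 2. The sum of the 3 genes was 630, 606 and 705 in wild type and 1077 and 807 in knockout, 1.46 times as high, without a call (adjusted p = 1). Rpl34-ps1 (ENSMUSG00000068396, chr6:71124610-71124963), a copy of the large-subunit gene Rpl34, was listed at 0 in all 3 wild-type libraries and at 322 and 397 in knockout (adjusted p = 2.42e-07). Rpl34 was not called, at 785, 826 and 823 in wild type and 1124 and 771 in knockout. With its copy added the level was 785, 826 and 823 against 1446 and 1168, and the sums did not overlap (ratio 1.61, adjusted p = 1). The Rps2 pseudogenes Rps2-ps10 and Rps2-ps6 rose from at most 5.84 and 0.207 in wild type to 68.5 and 174 and to 12.9 and 61.4 (adjusted p = 0.00186 and 0.0209). Neither passed without knockout replicate 2.

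The other copies came from genes of metabolism, nuclear import, DNA repair and the cytoskeleton. Gm6166 (ENSMUSG00000074280, chr9:57483963-57484371), a processed pseudogene of the fatty acid binding protein gene Fabp5, rose from 1.72, 0 and 0.807 to 253 and 214 (7.10 ± 0.49, adjusted p = 6.81e-06). Gm15920, a copy of Ndufa12 of respiratory complex I, rose from 0, 1.30 and 0 to 118 and 104 (adjusted p = 4.43e-05). Eno1b and Gm4735, copies of the glycolytic enolase gene Eno1, were at 0.059 or below in wild type and at 213 and 87.3 and at 23.1 and 21.5 in knockout (adjusted p = 1.81e-05 and 0.00152). In these libraries Eno1 had levels of 386, 415 and 418 in wild type and 294 and 300 in knockout, which do not overlap, without a call (-0.45 ± 0.20, adjusted p = 1).

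Gm10184 (ENSMUSG00000066878, chr17:89908462-89910449), annotated as protein coding and differing from Kpna2 at 2 of 1590 coding bases, rose from 0, 0.189 and 0.394 to 93.2 and 55.8 (5.95 ± 0.53, adjusted p = 7.22e-05). Kpna2, an importin alpha that carries cargo into the nucleus, had levels of 92.8, 84.1 and 81.6 in wild type and 28.4 and 36.4 in knockout (-1.39 ± 0.26, adjusted p = 0.0663), and it passed in 6 of 22 alternative fits. The 2 genes thus had opposite signs, and their sum, 92.8, 84.3 and 82.0 against 122 and 92.2, overlapped between the groups. Gm9855 and Tdg-ps, copies of the thymine DNA glycosylase gene Tdg, were listed at 0 in all wild-type libraries and at 33.6 and 25.0 and at 8.40 and 6.94 in knockout (adjusted p = 5.55e-04 and 0.0285). Tdg had levels of 61.9, 70.6 and 71.8 in wild type and 34.0 and 42.2 in knockout (-0.83 ± 0.24, adjusted p = 0.85). The family sum was 61.9, 70.6 and 71.8 against 76.0 and 74.1.

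Tuba1c and Gm14150 were the called tubulin sequences. Tuba1c (ENSMUSG00000043091, chr15:99029891-99038110), an alpha-tubulin gene with 4 exons and a protein product, rose from 1.26, 1.49 and 0.689 to 178 and 175 (6.39 ± 0.49, adjusted p = 1.81e-05). It differs from Tuba1b at 22 of 1350 aligned coding bases and from Tuba1a at 33. Gm14150, a processed tubulin pseudogene, rose from 6.84, 5.58 and 5.86 to 156 and 126 (4.32 ± 0.34, adjusted p = 2.19e-05). Tuba1a, the main alpha-tubulin gene of young neurons, was between 9365 and 10859 in wild type and at 12663 and 11030 in knockout (0.23 ± 0.19, adjusted p = 1, and -0.028 with quantile normalization). Tuba1b was between 711 and 809 in wild type and at 1061 and 997 in knockout (0.44 ± 0.15, adjusted p = 1). The level of Tuba1c in knockout was thus far below that of Tuba1a, and the sum of the 4 sequences was 1.22 times as high in knockout.

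The called copies not yet described follow. Atp6v0c-ps2, a copy of a proton pump subunit gene, was at 0.82, 0 and 0 in wild type and 46.2 and 202 in knockout (adjusted p = 7.13e-04), and it did not pass without knockout replicate 2. Chosen after their values were seen, since the naming rule stops at 15, were Mrpl48-ps, Hist1h2al and Gm9825, all listed at 0 in the 3 wild-type libraries. Their knockout levels were 14.5 and 10.3 for Mrpl48-ps, 9.91 and 10.04 for Hist1h2al and 11.6 and 45.6 for Gm9825, a copy of the splicing factor gene Rnps1 (adjusted p = 0.00671, 0.0161 and 0.0168). Of the exon bases of Hist1h2al 32.1% overlap another gene. Rps2-ps6 and Tdg-ps, given above, were also outside it. Each of these 5 lost its call in at least 3 of the alternative fits, among them the fit without knockout replicate 2.

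When each gene was summed with its copies, none of the 14 families that held a called copy was called. In a fit of 13525 such units (copies summed, an alternative chosen after seeing the data), 2 units were called (0.0148%), Gm37750 and Hddc3. The copy search found no copy of either, but Gm37750 was too short for that search, so its matches were not summed. The family ratios of mean levels, knockout over wild type, ran from 0.928 for a histone family to 1.89 for Fabp5. In 9 families the summed levels of the groups did not overlap, all 9 higher in knockout. Over all genes 14.9% did so. The families were chosen for a called copy in these same libraries, and that copy is part of each sum. The share over all genes is therefore no measure for them, and the count of 9 is a description only. The sums also add values per kilobase of transcripts that differ in length. Gm6166 has 409 nt and Fabp5 987, and Rps13-ps1 has 538 and Rps13 1317, whereas Tuba1c, at 1982, is longer than Tuba1a, at 1803. The sums and ratios are thus not counts of fragments, and the part of transcript length in them was not tested. Fabp5 with Gm6166 was at 577, 483 and 555 in wild type and 1165 and 868 in knockout (log2 fold change 0.91 ± 0.18, adjusted p = 0.788). Ndufa12 with Gm15920 was at 210, 290 and 307 against 509 and 435 (0.82 ± 0.21, adjusted p = 0.922). Atp6v0c, the parent of Atp6v0c-ps2, overlapped on its own, at 801, 870 and 839 in wild type and 843 and 819 in knockout.

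**Figure D2:**
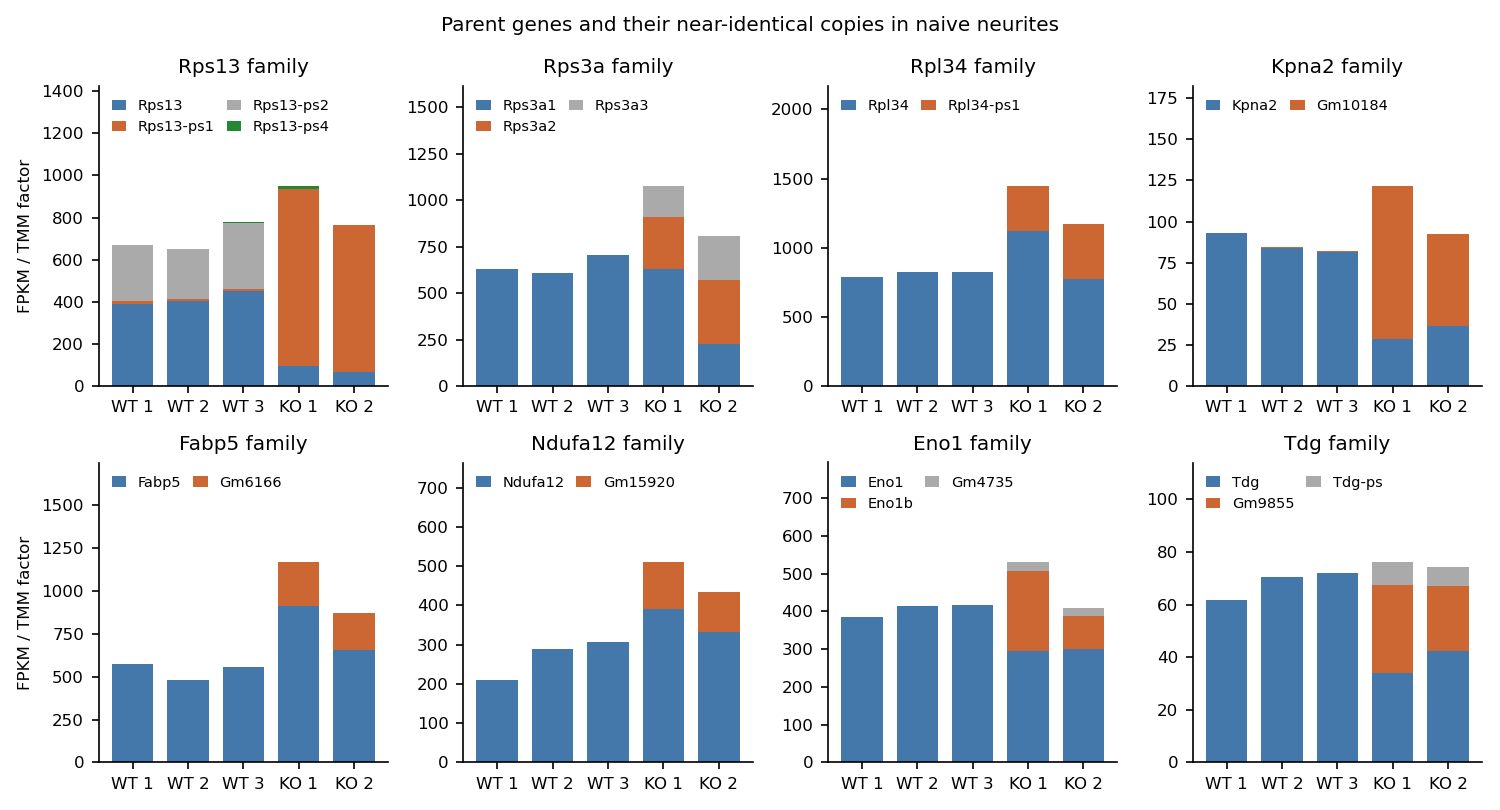
Levels (FPKM divided by the normalization factor) of 8 parent genes and their copies in the 5 naive libraries, stacked so that the bar height is the family sum; WT is wild type, KO knockout, and colours are genes. In the Rps13 bars the largest segment is Rps13 in wild type (388 to 450) and Rps13-ps1 in knockout (701 and 841), while in the Tdg and Eno1 bars segments of copies are visible only in knockout.

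Gm37750 and Hddc3 were the called genes for which the copy search found no copy. Gm37750 (ENSMUSG00000104268, chr9:104053327-104053455, plus strand) is an unclassified gene model of 129 nt. It had levels of 404, 418 and 240 in wild type and was listed at 0 in both knockout libraries (adjusted p = 2.42e-07). The model is shorter than the fragment length estimated for the naive libraries, 240 to 280 nt. How many fragments stand behind these levels is not known, since counts were not used. Gm37750 is too short for the copy search, and at 95% identity over at least 100 nt it matched transcripts of 135 other genes, 92 of them among the 14043. Other very short models also differed between the libraries. Among the 489 listed models of 120 to 127 nt, 0, 17 and 33 were above 0 in wild-type naive replicates 1, 2 and 3. In the wild-type injured libraries 22, 37 and 33 were, and in the knockout libraries none. The upper bound of 127 nt was set just below the shortest model above 0 in any knockout library. The absence in knockout thus follows from that bound. Gm37750 belongs to the 821 listed models of 128 to 139 nt. Of those, 17, 14 and 28 were above 0 in wild-type naive and 11 and 3 in knockout naive libraries. In injured libraries the counts were 14, 26 and 8 in wild type and 1 and 1 in knockout. Wild-type naive replicate 1 also had no model of 120 to 127 nt above 0, although Gm37750 was at 404 there. The part of model length in the difference at Gm37750 was not tested. None of the 4189 listed models under 120 nt was above 0 in any library.

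Hddc3 (ENSMUSG00000030532, chr7:80343104-80350547) encodes an HD-domain phosphohydrolase related to the bacterial enzymes that degrade the alarmone ppGpp. Its levels were 3.63, 9.36 and 5.49 in wild type and 83.3 and 48.8 in knockout, and it rose with a log2 fold change of 3.26 ± 0.45 (adjusted p = 0.00628). It kept its direction in every alternative fit that held it but did not pass without knockout replicate 1 (adjusted p = 0.317), without replicate 2 (adjusted p = 0.061) or among protein-coding genes without a copy alone. Of its exon bases 11.3% overlap Man2a2 on the genome, and reads of an unstranded library cannot be split between them there. Man2a2 was at 7.19, 7.12 and 4.47 in wild type and 4.19 and 7.63 in knockout. Hddc3 lies 0.996 Mb from Cpeb1, on the same chromosome. Of 63 genes within 5 Mb of Cpeb1 it was the 1 that was called; 9 had no overlap and lay higher in knockout and 8 lay lower, against 14.9% and 8.84% of all 14043 genes.

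The fold changes of the injured neurites, which share no library with the naive ones, had the same direction for each of the 23. Limma called 39 of the same 14043 genes there (0.278%), 27 higher and 12 lower. All 23 genes called in naive neurites were among them, which is 100% of the naive calls and 59.0% of the injured. Both sets of calls came from 1 fit with a shared estimate of the spread, so they were not independent. With only the injured groups in the fit, 12 genes were called. Rps13-ps2 was at 293, 224 and 368 in wild-type injured and at 0 in both knockout injured libraries, and Gm37750 was at 705, 366 and 1179 against 0 and 0. Of the 23, Tuba1c had the largest difference between its naive and injured fold changes, with levels of 7.81, 11.8 and 33.6 in wild-type injured and 132 and 156 in knockout injured (3.20, adjusted p = 0.0139). Hddc3 was at 6.59, 13.7 and 7.09 against 53.7 and 64.4 (2.63, adjusted p = 0.0294). Kpna2 was among the genes called in injured neurites only, with a fold change close to the naive value (-1.41, adjusted p = 0.0389). The test of the difference between the naive and injured fold changes called 0 genes (0%) by limma, with 910 at an unadjusted p under 0.05 and a smallest adjusted p of 0.423. Across the 13159 genes without a copy the correlation of the naive and injured fold changes was 0.109, a description over genes, which are not independent replicates.

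**Figure D3:**
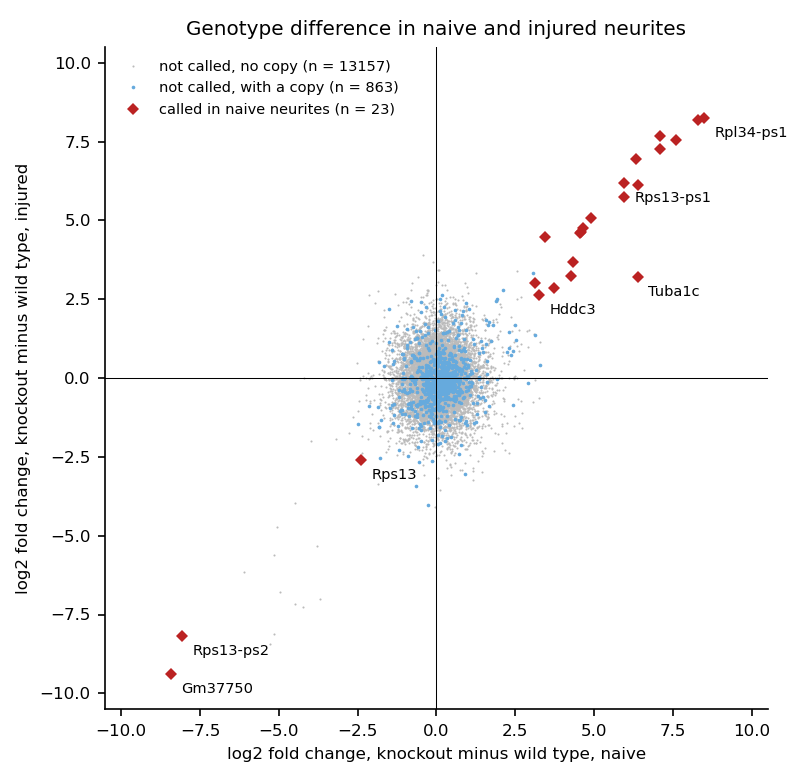
Log2 fold change, knockout minus wild type, of each of the 14043 genes in naive (x axis) against injured neurites (y axis); red diamonds are the 23 genes called in naive neurites, blue points other genes with a copy and grey points genes without. All red points lie in the upper right or lower left part of the plot, while the other points form a cloud around 0; grey points at the far lower left are short gene models that did not pass.

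There were 14 models with a naive fold change under -3 that did not pass, all shorter than 140 nt. They were listed at 0 in all 4 knockout libraries and so passed the filter on low values through wild-type libraries alone. Of the 14, 13 are annotated as microRNA models of 126 nt, and these 13 were all listed at 0 in wild-type naive replicate 1 and at 15.04 to 597 in replicates 2 and 3. Gm27754 was at 0 in all 5 injured libraries. The smallest adjusted p among the 14 was 0.998.

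Gm37750 and Hddc3 apart, no gene without a copy passed, and some are given by value. On the lower side stood Smarcd1, a subunit of the BAF chromatin remodelling complex, at 21.5, 21.8 and 22.1 in wild type and 3.13 and 5.13 in knockout (-2.18 ± 0.43, adjusted p = 0.129). The 3 wild-type libraries lay close together and both knockout libraries lay well below them. Its injured fold change was -1.94 (adjusted p = 0.115), also without overlap, and in naive neurites it passed with no filter on low values (adjusted p = 0.0329), without a mean-variance trend (0.0269) and with array weights (0.0241). An overlapping gene shares 7.13% of its exon bases. Tmem74, a transmembrane protein of lysosomes and autophagosomes, was at 8.80, 8.39 and 14.8 against 1.68 and 1.38 (-2.16 ± 0.48, adjusted p = 0.273). In injured neurites its groups overlapped (-0.31). Gabra2, the alpha2 subunit of the GABA-A receptor, was at 38.0, 34.2 and 33.8 against 7.51 and 20.8 (-1.41 ± 0.39, adjusted p = 0.691). The fold change was -0.73 without knockout replicate 1 and -2.09 without replicate 2, with an injured value of -0.97 without overlap.

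Banp, Aff2, Oser1 and Mrps12 filled the lower side. Banp, a DNA-binding protein of unmethylated promoters, was at 32.6, 32.4 and 46.7 in wild type and 12.9 and 19.8 in knockout (-1.15 ± 0.35, adjusted p = 0.905). Mrps12, of the small mitochondrial ribosomal subunit, was at 86.4, 77.9 and 80.0 against 48.1 and 51.7 (-0.69 ± 0.23, adjusted p = 1). Aff2 was at 15.6, 33.4 and 26.4 against 8.60 and 11.1 (-1.21 ± 0.39, adjusted p = 0.961). Oser1 was at 24.1, 38.7 and 29.997 against 6.41 and 19.0 (-1.36 ± 0.44, adjusted p = 1), with -0.65 without knockout replicate 1 and -2.08 without replicate 2. On the higher side the genes given here were chosen after their values were seen, and genes at low levels, such as Dus4l, had p-values as small. Hspb6, a small heat shock protein, was at 10.01, 8.13 and 5.03 against 26.6 and 33.1 (1.86 ± 0.38, adjusted p = 0.174), and it passed with array weights (adjusted p = 0.0418). Necap2, of clathrin-mediated endocytosis, was at 10.3, 10.4 and 13.6 against 24.7 and 44.0 (1.47 ± 0.35, adjusted p = 0.375). Coa3, an assembly factor of cytochrome c oxidase, was at 93.0, 92.7 and 83.8 against 165 and 175 (0.91 ± 0.22, adjusted p = 0.403), and Raly, an hnRNP, at 29.5, 22.1 and 19.0 against 55.7 and 49.1 (1.14 ± 0.29, adjusted p = 0.499). In injured neurites the groups of Hspb6, Necap2, Coa3 and Raly overlapped, with values between -0.23 and 0.44.

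**Figure D4:**
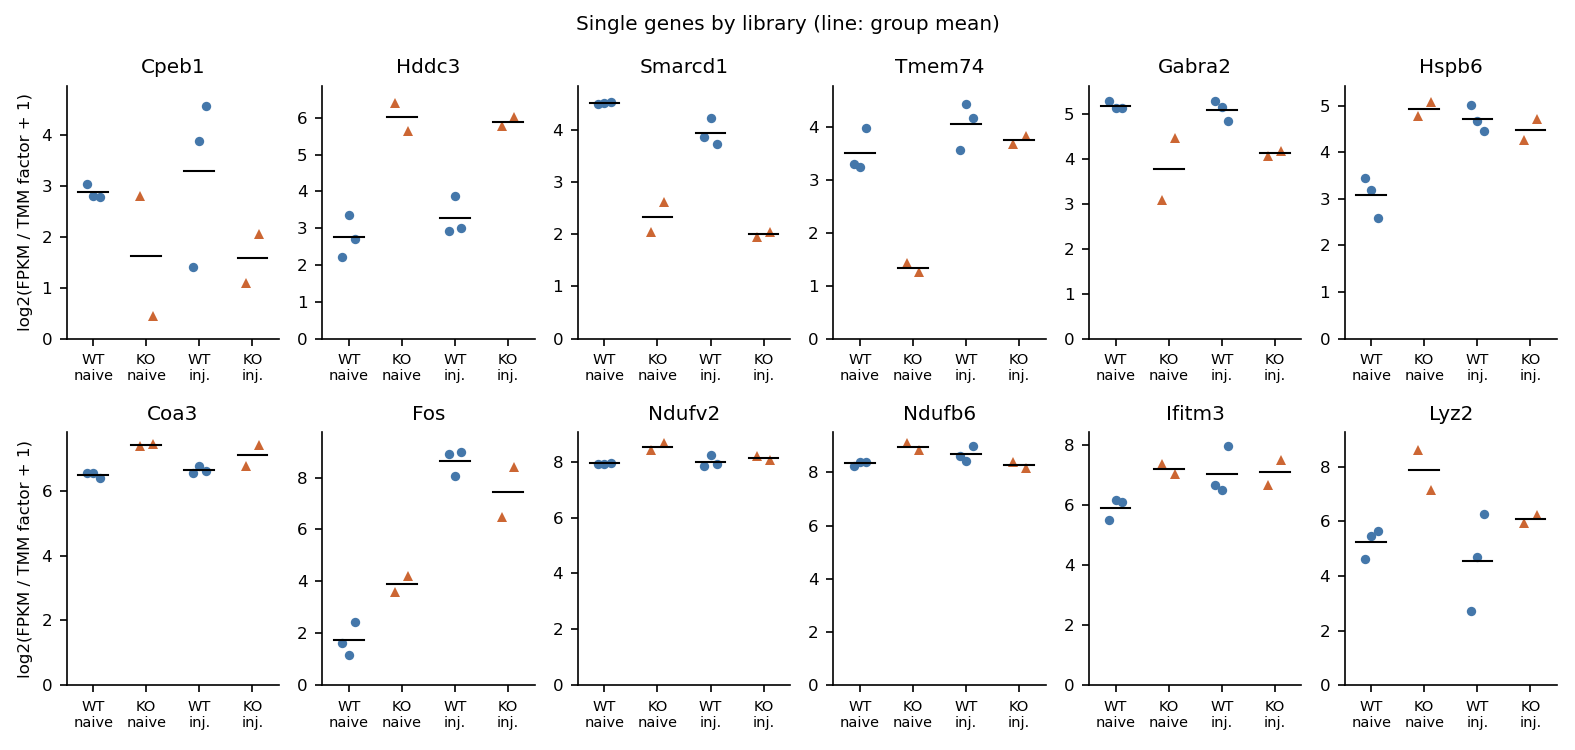
Levels of 12 single genes on the scale log2(value + 1) in each of the 10 libraries (WT wild type, circles, n = 3; KO knockout, triangles, n = 2; inj. injured), with the group mean as a line. Hddc3 and Smarcd1 are apart between genotypes in naive and injured neurites, whereas Tmem74, Hspb6 and Lyz2 are apart in naive neurites only, and 1 Cpeb1 triangle in the naive group lies among the wild-type circles.

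The CPEB family itself was low. The genes for its other RNA-binding members, which share the recognition domains of CPEB1, had levels between 1.45 and 5.21 in all 5 naive libraries, and no pair of groups was apart. Cpeb2 was at 4.30, 3.95 and 1.99 in wild type and 2.38 and 3.40 in knockout (-0.15 ± 0.66). Cpeb3 was at 2.50, 3.61 and 1.45 against 1.55 and 3.60 (0.008 ± 0.67), and Cpeb4 at 3.76, 4.46 and 1.67 against 5.21 and 1.96 (0.059 ± 0.64), all with an adjusted p of 1. The sign of the Cpeb2 to Cpeb4 values changed with the library left out, and that of Cpeb3 and Cpeb4 also with the scaling.

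Reported CPEB1 target mRNAs were described next, from a list of 11 that includes Camk2a, Plat, Map2 and Ndufv2. None was called, 1 had an unadjusted p under 0.05, and the median log2 fold change was 0.059 beside 0.078 over all 14043 genes. With quantile normalization, median-ratio scaling and the factor multiplied by the column total the list's median was -0.012, -0.022 and -0.014. It was 0.13 without knockout replicate 1, 0.29 without knockout replicate 2, -0.11 without wild-type replicate 1 and 0.23 without wild-type replicate 3. Ndufv2, a subunit of complex I, was at 243, 239 and 249 in wild type and 337 and 402 in knockout (0.59 ± 0.18, adjusted p = 0.881). Both knockout libraries lay above the wild-type range, and in injured neurites the groups overlapped (0.13). Ctnnb1, which encodes beta-catenin, was at 125, 120 and 143 against 202 and 153 (0.44 ± 0.32, adjusted p = 1), with knockout replicate 1 well above replicate 2. Camk2a, the kinase subunit of synapses, was at 57.2, 50.9 and 109 against 83.9 and 95.2, and Map2, a microtubule protein of dendrites, at 314, 344 and 311 against 262 and 314, so both overlapped.

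Elements for CPEB1 were searched as TTTTAT and TTTTAAT on the sense strand of the longest annotated 3' UTR. Of the 12259 genes with a 3' UTR, 63.6% held at least 1 element. The windows below, from GENCODE M21 transcripts (mm10), show those of Ndufv2 and Tmem74, a reported target described above and a gene of the lower side with elements; capitals mark the element.
Ndufv2, chr17:66079236-66079263, minus strand: gccatgtcatTTTTATcagtgaagtaaa
Ndufv2, chr17:66079154-66079181, minus strand: ttgttaaattTTTTATaagctttatgtc
Tmem74, chr15:43866681-43866708, minus strand: cagccataccTTTTATatgaaaaaaatt
Tmem74, chr15:43866593-43866620, minus strand: ccagtgagtgTTTTATttccatgaatct
Tmem74, chr15:43865517-43865545, minus strand: cacttaggttTTTTAATtagtatgttaca
A match is a description of the letters, not a binding site. Of the 23 called genes 5 have an annotated 3' UTR, and none of the 5 holds an element. The median log2 fold change was 0.064 over the 7793 genes with an element and 0.12 over the 4466 without. It was 0.085 with 1 element, 0.094 with 2, 0.061 with 3, 0.064 with 4 and 0.030 with 5 or more. UTR length moves with the element, with a median of 1841 nt with and 530 nt without. Within 5 equal classes of UTR length, from the shortest to the longest, the medians without and with an element were 0.19 and 0.14, 0.092 and 0.095, 0.068 and 0.11, 0.086 and 0.055, and 0.060 and 0.015. The sign of the difference was thus not the same in every class. By library, genes with an element minus genes without was 0.019, 0.038 and -0.051 in wild type and -0.11 and 0.0017 in knockout, so the lower value came from knockout replicate 1. A list of 39 genes of polyadenylation and deadenylation had a median of 0.12 (-0.012 without knockout replicate 1) and no call, and 0 of 39 had an unadjusted p under 0.05. Sympk, the symplekin scaffold of polyadenylation, was at 9.10, 11.7 and 16.9 against 21.6 and 24.2 (0.85 ± 0.47, adjusted p = 1). Papola, a nuclear poly(A) polymerase, was at 92.8, 46.1 and 54.2 against 78.3 and 94.8.

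Median fold changes of the energy and protein machinery lay slightly above the 0.078 of all genes, with no call in that direction. For cytosolic ribosomal proteins and for initiation and elongation factors, the median of knockout replicate 2 (0.069 and 0.093) lay within the wild-type range. Per list, the count of genes whose libraries did not overlap is read against 14.9% of all genes higher and 8.84% lower. Of the 76 oxidative phosphorylation genes, 52 were apart and higher and 0 lower, 74 had a fold change above 0, and the median was 0.35. Per knockout library the median was 0.46 and 0.22, and with quantile normalization it was 0.11. No member was called, and 16 had an unadjusted p under 0.05, all higher, beside 4.22% of all genes. Ndufb6, of complex I, was at 302, 337 and 338 in wild type and 545 and 462 in knockout (0.62 ± 0.19, adjusted p = 0.889), and 39.0% of its exon bases overlap another gene. In injured neurites the list's median was -0.0018, and Ndufb6 lay apart in the other direction.

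Mitochondrial ribosomal protein genes had a median of 0.31 (0.17 with quantile normalization, 0.21 in injured neurites), with 0.38 and 0.18 in the knockout libraries, and 25 of 77 were apart and higher and 6 lower. Mrpl17 was at 58.0, 60.3 and 91.0 against 151 and 107 (0.88 ± 0.26, adjusted p = 0.85), and Mrps7 at 23.6, 22.8 and 33.7 against 49.4 and 56.2 (0.97 ± 0.29, adjusted p = 0.85). The 32 proteasome genes had a median of 0.23 (0.14 with median-ratio scaling, 0.068 after quantile normalization, 0.046 in injured neurites), with 17 apart and higher and 0 lower. Among them were Psma3, of the catalytic core, at 402, 396 and 317 against 667 and 560 (0.73 ± 0.17, adjusted p = 0.375), which has a copy, and Psmd13, of the regulatory lid, at 110, 87.6 and 104 against 162 and 141 (0.59 ± 0.19, adjusted p = 1). None of the mitochondrial ribosomal and proteasome genes was called, and 12 and 4 had an unadjusted p under 0.05.

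Cytosolic ribosomal protein genes had a median of 0.29, but the knockout libraries differed, with 0.54 in replicate 1 and 0.069 in replicate 2. Of the 80 genes 33 were apart and higher and 1, Rps13, was apart, lower and called. A copy was found for 56 of the 80, and the median of those without was 0.26. Quantile normalization gave 0.034, and in injured neurites the median was -0.28. Rps23, of the small subunit, was at 394, 387 and 371 against 595 and 489 (0.49 ± 0.19, adjusted p = 1). Initiation and elongation factors had a median of 0.17, with 0.27 and 0.093 in the knockout libraries, 0.011 with quantile normalization and -0.11 in injured neurites. They had 11 of 43 apart and higher, 2 lower and 1 with an unadjusted p under 0.05, and no call. Eef1b2, an elongation factor subunit, was at 522, 423 and 465 against 728 and 536, and Eif4e, the cap-binding protein, at 137, 109 and 98.2 against 165 and 139.

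Genes of other cell types and of cell bodies were checked beside these. In bulk samples fewer cells of a type and less RNA per cell cannot be told apart. Of 17 microglia and macrophage markers 9 were measured, with a summed level of 37.6 to 81.3 in wild type and of 535 and 193 in knockout. Most of that sum was Lyz2 in every naive library. Defining markers such as Cx3cr1, Tmem119, Csf1r, Aif1 and Trem2 did not reach a value of 1 in 2 naive libraries, and P2ry12 was at 0, 2.31 and 0 against 0 and 1.93. Lyz2, a lysozyme of macrophages and other myeloid cells, was at 23.7, 42.8 and 49.4 against 390 and 140 (2.63 ± 0.76, adjusted p = 0.81). Fcer1g, an Fc receptor chain, was at 0, 2.24 and 2.402 against 46.5 and 9.05 (3.30 ± 0.86, adjusted p = 0.557). Without knockout replicate 1 the fold changes of Lyz2 and Fcer1g were 1.89 and 2.18, and without replicate 2 they were 3.37 and 4.42. No member was called, 4 of 9 were apart and higher and the same number had an unadjusted p under 0.05. Interferon-stimulated and antigen presentation genes had a median of 0.80, with 1.05 and 0.51 in the knockout libraries, 11 of 23 apart and higher and 0 lower, 5 with an unadjusted p under 0.05, and no call. Ifitm3, which blocks virus entry, was at 43.5, 69.8 and 66.7 against 161 and 130 (1.29 ± 0.40, adjusted p = 0.921). In injured neurites the median was 1.09 for the microglia list and 0.19 for the interferon list. The injured groups of Lyz2 (1.53), Fcer1g (1.15) and Ifitm3 (0.046) overlapped. The part of these cell type markers in the differences above was not tested.

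Astrocyte markers had a median of 0.27 with 4 of 18 apart and higher, the summed level running from 1646 to 2187 in wild type and being 2606 and 2186 in knockout. Acsbg1, an astrocyte lipid enzyme, was at 21.5, 19.9 and 36.4 against 60.1 and 60.9 (1.24 ± 0.46, adjusted p = 1), and Aldoc, an astrocyte aldolase, at 161, 138 and 182 against 211 and 227. Cell cycle genes had a median of 0.33 that rested on knockout replicate 1, with 0.67 there and -0.17 in replicate 2; Tyms was at 3.00, 4.68 and 8.44 against 16.9 and 12.6, and Ube2c at 37.3, 25.0 and 25.1 against 48.2 and 60.0. Nuclear-retained RNAs, which would be carried over with cell bodies, had a median of -0.32, with -0.50 and -0.16 in the knockout libraries, and 5 of 11 were apart and lower. Meg3 was at 754, 624 and 787 against 430 and 508 (-0.62 ± 0.21, adjusted p = 1), and Snhg14 at 148, 191 and 204 against 55.6 and 137. The fold change of Snhg14 was -0.39 without knockout replicate 1 and -1.67 without replicate 2. None of these lists held a call, and 1 astrocyte, 1 cell cycle and 1 nuclear gene had an unadjusted p under 0.05. In injured neurites the medians were -0.45 for astrocyte markers, -0.48 for cell cycle genes and -0.43 for nuclear-retained RNAs.

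The lists of neuronal genes described here had medians from -0.13 to 0.12, beside 0.078 over all genes. Among lists not described further, 18 interneuron markers had a median of 0.27, with -0.13 and 0.71 in the knockout libraries. The median of 19 projection neuron markers was 0.037. The neuron and axon markers had a median of 0.11 (-0.11 with quantile normalization). Gap43, a growth cone protein, was at 830, 720 and 799 against 1149 and 837 (0.33 ± 0.19), and Snap25, of the vesicle fusion complex, at 201, 205 and 173 against 209 and 255 (0.26 ± 0.27). Tubulins, neurofilaments and microtubule-associated proteins had a median of 0.12 (-0.090 with quantile normalization), and Tuba1c was the 1 called of 37. The 35 presynaptic genes had a median of -0.023 (-0.15 with quantile normalization), with 5 apart and higher and 7 lower. Nsf, which disassembles the vesicle fusion complex, was at 83.9, 63.6 and 59.2 against 47.4 and 46.6, and the vesicle protein Syt4 was at 120, 129 and 120 against 90.9 and 100.3. The 35 postsynaptic genes had a median of -0.083 (-0.16 with quantile normalization), with 2 apart and higher and 5 lower; the scaffold Shank3 was at 14.8, 14.5 and 11.0 against 7.19 and 7.55, while Shank2 was at 4.22, 2.51 and 3.30 against 5.80 and 5.79. Voltage-gated channel genes had a median of -0.13 (-0.22 with quantile normalization), with 0 of 26 apart and higher and 2 lower, led by the potassium channel Kcnh7 (6.97, 7.34 and 7.85 against 2.65 and 4.73). In these lists, Tuba1c apart, no gene was called, and 0 presynaptic, 0 postsynaptic and 0 channel genes had an unadjusted p under 0.05.

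Immediate early and activity genes, 25 of them measured, had a median of -0.020, with 0.24 and -0.26 in the knockout libraries and no call. Fos, an AP-1 transcription factor component, was at 2.11, 1.23 and 4.34 in wild type and 10.9 and 17.4 in knockout (2.15 ± 0.53, adjusted p = 0.427). The groups were apart, but in injured neurites, where Fos was between 267 and 501 in wild type and at 88.8 and 340 in knockout, they overlapped (-1.20). Ier3 was at 8.35, 0 and 0 against 13.6 and 12.2 (adjusted p = 1).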

How the data were processed

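The deposited table of the authors holds 1 value per gene ID and library. Per the submitters' processing notes the reads were aligned with STAR 2.4.2a and quantified with RSEM 1.2.21 on mm10. The deposited values were taken as FPKM divided by 1 TMM normalization factor per library. No source states this; it rests on the values, since at least 99.9% of them in each library were whole multiples of the FPKM step times a factor, and that factor lay within 0.16% of the TMM factor computed from the undivided values. Libraries were made by oligo(dT)-primed Smart-seq2 from 1 ng of RNA (14 PCR cycles) and by tagmentation of 500 pg of the product (11 cycles), per the labels' protocols, and carry no strand information. The depth was estimated from the steps in the values, counts were not used here, and no counting interval is given.

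Gene names, coordinates and 3' UTRs came from GENCODE M21 (44548 of 45195 IDs matched). Tests used limma 3.58.1 under R 4.3.3, applied to log2(value + 1) with a mean-variance trend, in 1 fit of 4 group means over 10 libraries, on the 14043 genes; Benjamini-Hochberg adjustment ran over all of them with a threshold of 0.05 (residual df 6, prior df 6.73). The fit was tested on simulated data. Summaries used python 3.11.15, numpy 2.4.6 and pandas 2.3.3. Copies were sought with blastn 2.17.0. They were sought and summed among all genes at 1 or above in 2 or more of the 10 libraries. These include some copies outside the 14043, such as Gm6311 of the Rps2 family.

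The genes and the 36 gene lists, of which 19 are described, were chosen with earlier results of these data known, and no list was given a test. Interneuron and projection neuron markers, outside the 19, are given by their medians alone. The rule for named genes took Cpeb1 to Cpeb4, up to 15 called genes per direction, protein-coding genes without overlap up to 12 per direction, and 2 genes of each list described (some are not reported here); Hspb6, Necap2, Coa3, Raly, the parent genes of copies (Tuba1a, Fabp5, Rpl34, Rps3a1, Eno1, Ndufa12, Atp6v0c), Man2a2, Rps13-ps4, Camk2a, Map2 and P2ry12 were named after their values were seen. Alternatives were other pseudocounts, filters, scalings, gene sets and fits, and each library left out in turn.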

Additional observations from a re-analysis of the deposited data

How the results depend on the processing

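The number of genes called in naive neurites was 23. Without a filter on low values it was 52 (45 higher, 7 lower), 0 among protein-coding genes without a copy (397 with an unadjusted p under 0.05 by limma), and 2 with copies summed. Leaving out 1 library gave 15 to 27, the fewest without knockout naive replicate 2 and the most without wild-type naive replicate 1 (16 higher, 11 lower). In the 10 other fits without a block it was 20 to 32. The number for injured neurites, 39, was 12 with only the groups compared, 4 among protein-coding genes without a copy, 6 with copies summed and 24 to 52 with 1 library left out, the fewest without knockout injured replicate 2. The test of the difference called 0 genes, and 13 with no filter. Of the 23 genes 15 passed in every alternative fit that held them, and none changed sign.

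The labels do not say that the replicate numbers pair libraries, and deviations from the group mean correlated at -0.042 and -0.013 for the same-numbered naive pairs. With a replicate block 21 genes were called, and Cpeb4 and Cpeb3 had values of -0.28 and -0.074. Other changes of sign were in genes that did not pass: Tuba1a and Rpl34 with quantile normalization (-0.028 and -0.10), Cpeb3 with quantile normalization, median-ratio scaling, the factor times the column total, and array weights (-0.044, -0.048, -0.042 and -0.0089), and Cpeb4 with median-ratio scaling and the factor times the column total (-0.0073 and -0.0013). With 1 library left out, values ran from -0.073 to 0.47 for Rpl34, -0.41 to 0.039 for Cpeb2, -0.42 to 0.43 for Cpeb3, -0.48 to 0.59 for Cpeb4 and -0.040 to 0.020 for Atp6v0c. The cause was not tested. Where 1 library was left out of a knockout group, the lone library was assumed to vary like the other groups.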
